A study of Mus musculus with 6 samples.

Results

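The EphA receptors are cell-surface receptor tyrosine kinases, and their transcripts were followed here in pancreatic islets of mice without and with pyruvate carboxylase in their β-cells. The genes were chosen by name, as EPHA followed by a number, and 8 of the 13702 genes in the table met that rule. Members with at least 20 counts summed over the 6 libraries were compared, and 6 of the 8 reached that total. These were EPHA7 with 358 counts, EPHA3 with 54, EPHA10 with 30, EPHA1 with 29, EPHA6 with 27 and EPHA4 with 26. EPHA4 stood just inside the minimum and EPHA2, with 16 counts, just outside it, and EPHA5 had 1 count in all. EPHA8 was looked for and was not listed under this name. The totals that chose the members are a description and support nothing.

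RNA was sequenced from islets of 12-week-old β-PCKO mice (3 libraries, labelled KO), which lack pyruvate carboxylase in β-cells, and of their wild-type littermates (3 libraries, labelled WT). That enzyme carries pyruvate into oxaloacetate inside mitochondria. The promoter that drives the deletion, the strain and the number of mice behind each library are not given in the sources used here, so the tests gauge library-to-library spread, some or all of which may be technical. The counts stand under human gene identifiers although the libraries are labelled mouse, so a value counts reads put under a human gene name.

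Eph receptors bind ephrins, which are themselves held on the surface of the neighbouring cell, so the pair reports contact between cells. The A receptors mainly bind the glycolipid-anchored ephrin-A ligands, and the B receptors mainly bind the transmembrane ephrin-B ligands. Signals run both ways, forward through the receptor kinase to the actin skeleton, and in reverse through the ephrin. In mouse and human islets, EphA forward signalling is known to restrain insulin secretion between β-cells and ephrin-A reverse signalling to favour it, with EPHA5 and EFNA5 as the pair first described.

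The libraries were unequal before any gene was compared. Total counts were 224898 to 225561 in the KO libraries and 35906 to 377876 in the WT libraries, with WT replicate 1 the shallowest and WT replicate 2 the deepest. Chi-square per degree of freedom, which is near 1 for sampling noise alone, ran from 1.96 to 2.02 for pairs of KO libraries and from 16.5 to 35.1 for pairs of WT libraries (genes with a summed count of 20 or more). The KO libraries were thus much closer to one another than the WT libraries were. Of 13 β-cell markers, 4 were listed, and INS, PDX1 and SLC2A2 were not under these names. MAFA and NEUROD1 carried nearly all β-cell marker counts, while NKX6-1 had 1 count in KO replicate 2, 1 in WT replicate 2 and 0 elsewhere. Squamous epithelium markers took 0.0227% to 0.0310% of counts in the KO libraries. They took 0.0641% in WT replicate 1, 0.0952% in WT replicate 3 and 16.6% in WT replicate 2. The identity of the tissue could therefore not be checked fully by its defining genes.

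The mouse genes of the same symbols lie apart in the genome. In GRCm38.p6, which is the mm10 assembly, Epha7 is at chr4:28813066-28967503 on the plus strand, Epha3 at chr16:63543532-63864175 on the minus strand and Epha10 at chr4:124881530-124917801 on the plus strand. These 3 had most or all of their counts in the KO libraries, and for each a window of 250 bases before 1 RefSeq transcript start (GRCm38.p6; for Epha7 the first of its entries) is printed because members that are high in the same libraries can be compared there. The spans above cover all transcripts of a gene, and these starts are not always where a span begins: 65 bases of the Epha7 window, all 250 of the Epha10 window and 0 of the Epha3 window lie inside the span. Capitals mark CG dinucleotides.
Epha7 promoter, chr4:28812881-28813130, plus strand: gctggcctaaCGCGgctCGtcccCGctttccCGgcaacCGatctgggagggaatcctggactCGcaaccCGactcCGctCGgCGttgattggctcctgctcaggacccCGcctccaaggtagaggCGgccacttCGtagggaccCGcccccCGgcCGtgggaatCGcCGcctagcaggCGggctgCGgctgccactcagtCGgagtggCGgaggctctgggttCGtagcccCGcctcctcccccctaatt
Epha3 promoter, chr16:63864176-63864425, minus strand: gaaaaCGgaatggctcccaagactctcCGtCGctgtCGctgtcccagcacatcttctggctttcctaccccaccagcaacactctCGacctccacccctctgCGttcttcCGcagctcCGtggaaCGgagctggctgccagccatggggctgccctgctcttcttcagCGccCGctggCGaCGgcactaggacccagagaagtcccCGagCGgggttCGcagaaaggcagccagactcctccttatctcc
Epha10 promoter, chr4:124881535-124881784, plus strand: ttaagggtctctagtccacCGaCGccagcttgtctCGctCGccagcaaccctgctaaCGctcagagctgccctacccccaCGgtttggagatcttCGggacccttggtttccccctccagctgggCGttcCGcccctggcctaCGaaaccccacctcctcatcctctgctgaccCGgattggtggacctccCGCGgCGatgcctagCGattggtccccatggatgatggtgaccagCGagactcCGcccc
The windows of Epha7, Epha3 and Epha10 held 25, 16 and 17 CG dinucleotides, against a median of 6 over 27025 mouse promoter windows of the same length, and 89.7%, 74.4% and 76.4% of those windows held fewer. CG-rich windows were not particular to these genes, since those of the other 5 listed EphA genes held 9 to 20. The GC box GGGCGG, searched on both strands, had 1 match in the Epha7 window, 0 in that of Epha3 and 2 in that of Epha10, and 32.9% of all windows held it. CCAAT, again on both strands, had 1, 0 and 2 matches, and 34.5% of windows held it. The E-box CAGNTG, the kind of site that basic helix-loop-helix factors such as NEUROD1 can bind, had 1 match in the Epha10 window and 0 in those of Epha7 and Epha3, and 44.5% of windows held it. TATAAA and TGACGTCA had 0 matches in all 3 windows, and 13% and 1.62% of windows held them. No motif in this search contained another.

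EPHA7, a receptor for ephrin-A ligands that guides axons and cell sorting in the developing nervous system, was the most counted member and was high in the KO libraries. EPHA7 (ENSG00000135333) had 107, 105 and 142 counts in KO replicates 1 to 3 and 1, 1 and 2 counts in WT replicates 1 to 3. Each KO library was far above each WT library. On TMM-scaled library sizes (trimmed mean of M values, which sets libraries to a common scale) these were 450, 438 and 594 CPM (counts scaled to a common library size) in KO and 25.7, 4.0 and 12.6 CPM in WT. The means were 494 ± 86.8 CPM in KO and 14.1 ± 10.9 CPM in WT (SD, n = 3 each). EPHA7 rose in KO, with a log2 fold change (KO over WT) of 5.53 ± 0.76 (SE) and an adjusted p of 0.0223 by edgeR's quasi-likelihood test with Benjamini-Hochberg adjustment over 2560 genes. By summed counts on the same scale, 354 in KO and 4 in WT, the ratio was 55.2, with an exact counting interval of 21.4 to 204 at 95% that covers counting error only. In this fit 8.05% of tested genes were called changed and 5.04% higher in KO, and the median log2 fold change over all of them was −0.14. EPHA7 ranked 27 by log2 fold change.

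The WT counts of EPHA7 were also low for the depth of those libraries. At the pooled KO share of counts, WT replicates 1, 2 and 3 would hold 18.8, 198 and 71.0 EPHA7 counts, and they held 1, 1 and 2. Here and for the genes below, this share was taken of library totals without TMM scaling. The TMM factor was 0.662 for WT replicate 2 and 1.05 to 1.17 for the other libraries. On that scale the number for WT replicate 2 would be lower. The call was lost without KO replicate 1 (adjusted p 0.0611 in edgeR, log2 fold change 5.94), where 0.0897% of all tested genes were called. It was also lost in edgeR when the KO libraries were added into 1 column (log2 fold change 6.66). Against WT replicate 1 alone, with 0.0641% of counts on squamous markers, the log2 fold change was 4.30 (adjusted p 0.000396 in edgeR), a fit that gives this single library the spread of the KO libraries.

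EPHA3, which binds EFNA5 with high affinity and is known from cell repulsion and from haematopoietic and solid tumours, was also higher in KO but at low counts. EPHA3 (ENSG00000044524) had 26, 12 and 12 counts in KO replicates 1 to 3 and 0, 2 and 2 in WT replicates 1 to 3. The groups did not overlap, and KO replicate 1 stood at about the sum of the other 2 KO libraries. These were 109, 50.04 and 50.2 CPM in KO and 0, 8.0 and 12.6 CPM in WT, and averaged 69.9 ± 34.2 CPM in KO and 6.87 ± 6.39 CPM in WT (SD, n = 3 each). On the log2 scale EPHA3 was 2.90 ± 0.77 (SE) higher in KO, and its adjusted p in edgeR, 0.0496, lay just under the threshold of 0.05. By summed counts, 50 in KO and 4 in WT, the ratio was 7.80 (exact counting interval 2.86 to 29.8). In WT replicate 1 a count of 0 allows up to 3 counts, or 77.2 CPM, which is above the KO mean, so a difference from that library was not detectable at its depth. At the pooled KO share WT replicates 1, 2 and 3 would hold 2.66, 28.0 and 10.02 EPHA3 counts.

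The EPHA3 call rested on the setting. In edgeR it was lost without any 1 KO library (adjusted p 0.141 to 0.211), without WT replicate 2 (0.130) or WT replicate 3 (0.0760), and it held without WT replicate 1 (0.0152). The share of all tested genes called moved likewise. It was 0.0897% to 0.48% without a KO library, 0.396% without WT replicate 2, 7.09% without WT replicate 3 and 46.6% without WT replicate 1. These losses are thus not particular to EPHA3. Over 16 alternatives EPHA3 passed in 6 and EPHA7 in 14. Both log2 fold changes were positive in all 16 of them, from 2.40 to 6.74 for EPHA3 and from 4.30 to 6.66 for EPHA7. The 6.74 is the fit against WT replicate 1 alone, where the EPHA3 count was 0, and is no bound. The alternatives reuse the same 6 libraries, so the shared sign adds no support. Both genes entered the test through their KO counts, so that 2 tested members stood higher is not evidence about the family. Every KO library was above every WT library for 22.6% of all tested genes.

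**Figure D1:**
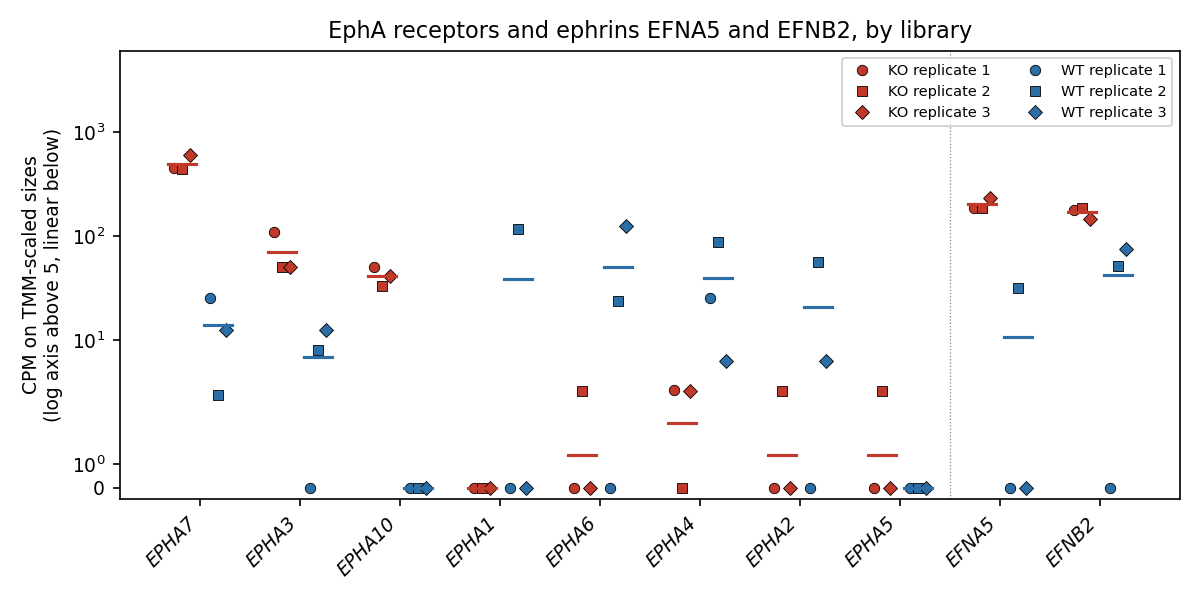
Level of each listed EphA receptor and of the ephrins EFNA5 and EFNB2 in each library, as CPM on TMM-scaled sizes (log axis above 5, linear below), with KO libraries in red at left and WT libraries in blue at right of each gene and bars at the group means. EPHA7 stood at 438 to 594 CPM in KO and 4.0 to 25.7 CPM in WT, while EPHA1, EPHA6, EPHA4 and EPHA2 had their highest values in WT replicate 2 or 3.

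**Figure D2:**
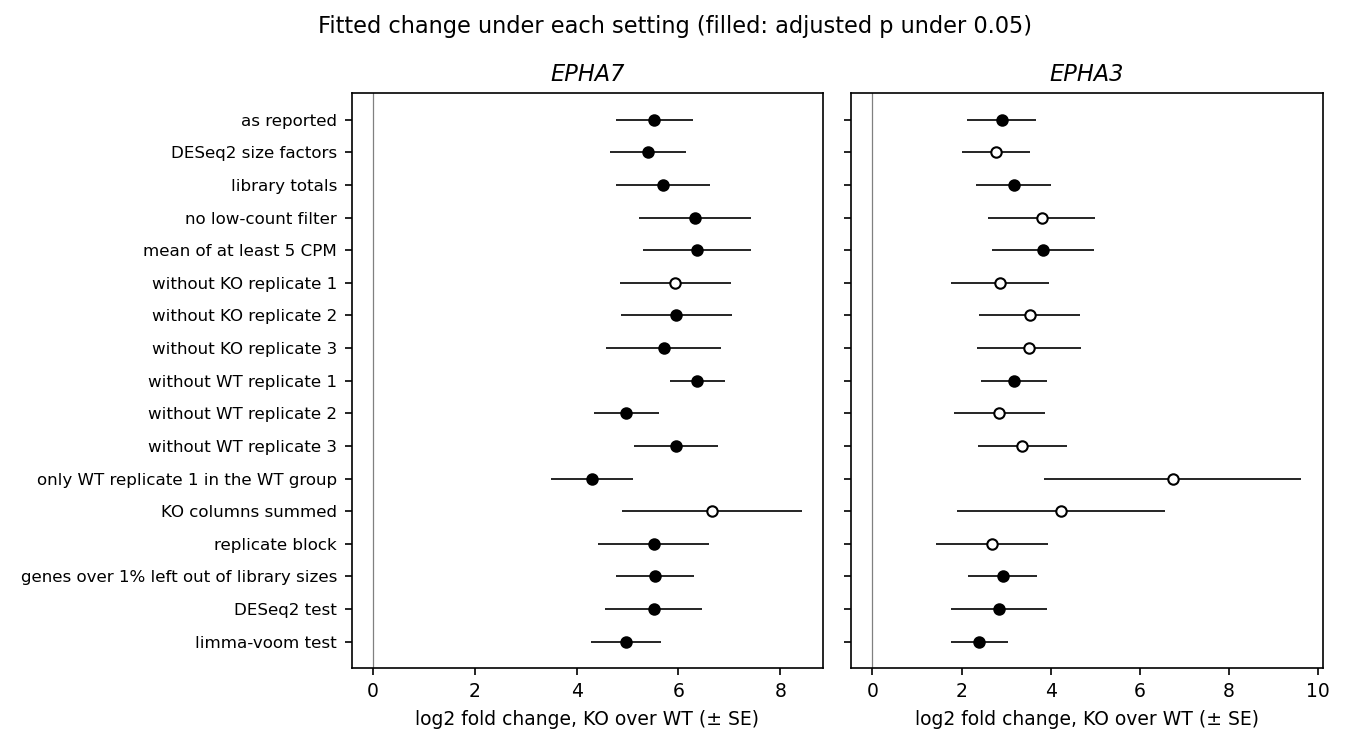
Fitted log2 fold change, KO over WT, of EPHA7 (left) and EPHA3 (right) as reported and under each of 16 alternatives, with standard errors as bars and filled points where the adjusted p was under 0.05. All points lie to the right of 0, and EPHA7 was filled in 14 alternatives and EPHA3 in 6.

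EPHA10, a member whose kinase domain lacks residues needed for catalysis, was counted in KO libraries alone. EPHA10 (ENSG00000183317) had 12, 8 and 10 counts in KO replicates 1 to 3 and 0 in each WT library. All KO libraries thus held some and no WT library any. The KO mean was 41.9 ± 8.56 CPM (SD, n = 3), and against a floor of 3 counts over the WT group EPHA10 was at least 6.24-fold higher in KO. Its counts kept it out of the test after filtering. With all genes kept, edgeR gave it an adjusted p of 0.0140 in a fit that called 3.2% of all genes. EPHA10 met the count minimum through its KO counts alone, so this value is a description and not evidence about the family. At the pooled KO share WT replicates 1, 2 and 3 would hold 1.60, 16.8 and 6.02 counts, so its 0 in WT replicate 1 says little at that depth.

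The remaining members had their counts in WT libraries, mostly in 1 library each. EPHA1 (ENSG00000146904), a receptor of epidermis and other epithelia, had 0 counts in each KO library and 0, 29 and 0 in WT replicates 1 to 3. EPHA4 (ENSG00000116106), which binds ephrins of both classes, had 1, 0 and 1 counts in the KO libraries against 1, 22 and 1 in WT. EPHA2 (ENSG00000142627), a receptor of epithelial cell contacts and below the count minimum, was at 0, 1 and 0 counts in the KO libraries against 0, 14 and 1 in WT. All 3 were high in WT replicate 2, the library with 16.6% of its counts on squamous epithelium markers, all 13 of which were listed, and their part in these counts was not tested. Of these markers 10 also had counts outside WT replicate 2, up to 19 in a KO library (TP63 and KRT13) and up to 42 in WT replicates 1 and 3 (KRT4), while KRT15, IVL and CNFN were at 0 in the other 5 libraries. EPHA6 (ENSG00000080224), best known from the nervous system, was at 0, 1 and 0 counts in the KO libraries against 0, 6 and 20 in WT, and was highest in WT replicate 3. Mesenchymal markers, 10 of 11 listed, took 0.218% to 0.225% of counts in KO, and 0.351%, 0.0873% and 0.587% in WT replicates 1, 2 and 3. Their part was not tested.

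By summed counts EPHA6 was lower in KO by a ratio of 41.7 (1 KO count against 26 WT counts, exact counting interval 6.84 to 1708), EPHA4 by 19.2 (2 against 24, 4.77 to 168) and EPHA2 by 24.0 (1 against 15, 3.70 to 1012). Summed over the WT group, EPHA1 was at least 15.5-fold lower in KO against a floor of 3 counts over the KO group. All 29 of its counts were in WT replicate 2, and WT replicates 1 and 3 held 0, as the KO libraries did. The bound therefore describes WT replicate 2 and not the WT libraries in general. The intervals and the bound cover counting error and not the spread between the WT libraries. None of the 4 was tested after the filter, and without a filter their adjusted p in edgeR were 0.151 for EPHA6, 0.364 for EPHA4, 0.414 for EPHA2 and 0.0886 for EPHA1. EPHA5 (ENSG00000145242), the receptor first described in β-cell contacts, had 1 count in KO replicate 2 and 0 in the other 5 libraries, and no comparison of it can be made. In bulk RNA such as this, fewer cells of a type and less RNA per cell cannot be told apart.

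The receptor that took most EphA counts differed between libraries. EphA genes together had 146, 128 and 165 counts in KO replicates 1 to 3 and 2, 74 and 26 in WT replicates 1 to 3, or 569 to 734 CPM of all counts in KO and 55.7 to 196 CPM in WT. EPHA7 took 73.3%, 82.0% and 86.1% of them in KO, and 50%, 1.35% and 7.69% in WT. In WT replicate 2 EPHA1 took 39.2%, EPHA4 29.7% and EPHA2 18.9%, and in WT replicate 3 EPHA6 took 76.9%. The 50% of WT replicate 1 rests on 1 of 2 counts. The KO libraries thus had 1 leading receptor in common, and no leading receptor was common to WT replicates 2 and 3.

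**Figure D3:**
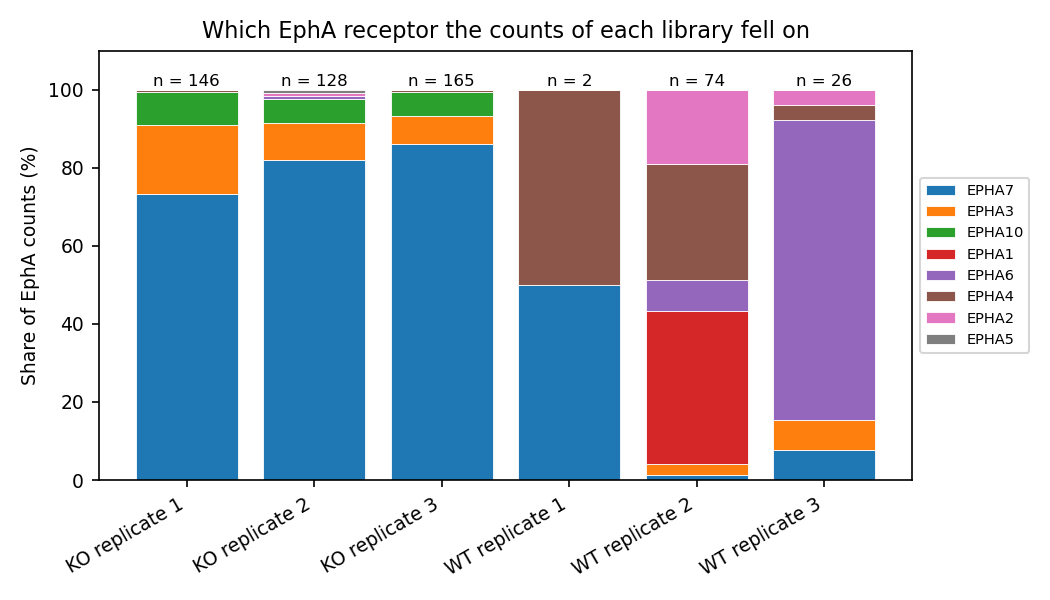
Share of the EphA counts of each library (percent) that fell on each receptor, KO libraries at left and WT libraries at right, with the number of EphA counts above each bar. EPHA7 took 73.3% to 86.1% in KO, while EPHA1 led in WT replicate 2 and EPHA6 in WT replicate 3.

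Within libraries, EPHA7 and EPHA3 were compared by the share of EPHA7 in the counts of both, which does not depend on scaling. EPHA7 took 80.5%, 89.7% and 92.2% of these in KO replicates 1 to 3, with exact Clopper-Pearson intervals of 72.7 to 86.8, 82.8 to 94.6 and 86.8 to 95.9. In WT replicates 1 to 3 it took 1 of 1, 1 of 3 and 2 of 4 counts, or 100%, 33.3% and 50%, with intervals of 2.5 to 100, 0.840 to 90.6 and 6.76 to 93.2. The mean shares were 87.5 ± 6.20% in KO and 61.1 ± 34.7% in WT (SD, n = 3 each), a difference of 26.4 percentage points with a two-sided exact permutation p of 0.4, where 0.1 is the smallest p the design allows. The WT shares spanned the KO shares, and at 1 to 4 counts per WT library a shift between both receptors was not detectable.

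Levels of different genes were set against each other per kilobase of the longest annotated coding sequence of the mouse gene (GENCODE M21). Counts may also include reads outside the coding sequence. The transcripts differ more in length than the coding sequences do (see their 31-base words below), so this scale is approximate. On that scale the KO libraries stood at 165 ± 29.0 CPM per kilobase for EPHA7, 23.7 ± 11.6 for EPHA3 and 16.2 ± 3.31 for EPHA10 (SD, n = 3 each), and at 0.945 or below for each other receptor. EPHA7 was above EPHA3 by more than their spread, while EPHA3 and EPHA10 overlapped between libraries. The annotated coding sequence of Epha10 was 2585 bases and no multiple of 3, so it may be partial and its level per kilobase too high, against 2952 for Epha3 and 2994 for Epha7. In WT the order was EPHA6 at 14.8 ± 19.8, EPHA4 at 13.5 ± 14.4, EPHA1 at 13.2 ± 22.8, EPHA2 at 7.09 ± 10.5, EPHA7 at 4.72 ± 3.66 and EPHA3 at 2.33 ± 2.16 CPM per kilobase, and no neighbours in it differed by more than their spread. The longest coding transcripts of the 8 listed mouse genes shared 0 to 4 of their 31-base words with another EphA gene, of 3243 to 6707 words each, so few reads of that exact length would be common to members.

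Of the ligands, EFNA5, the ephrin-A that binds EPHA3, EPHA5 and EPHA7 with high affinity, was higher in KO. EFNA5 (ENSG00000184349) had 44, 45 and 56 counts in KO replicates 1 to 3 and 0, 8 and 0 in WT replicates 1 to 3. Every KO library was above every WT library, as held for 22.6% of all tested genes, and all WT counts were in WT replicate 2. EFNA5 entered the test through its KO counts, and 5.04% of tested genes were called higher in KO. The means were 202 ± 27.7 CPM in KO and 10.7 ± 18.5 CPM in WT (SD, n = 3 each). EFNA5 was 3.68 ± 0.97 (SE) higher on the log2 scale, with adjusted p = 0.0496 in edgeR. This call too lay just under the threshold: it passed in 9 of 16 alternatives and in edgeR was lost when KO replicate 1, 2 or 3 was left out (0.132, 0.115 and 0.119), without WT replicate 2 (0.0504) and without WT replicate 3 (0.0575). Without a KO library or WT replicate 2, 0.0897% to 0.48% of all tested genes were called, and 7.09% without WT replicate 3. Without WT replicate 2 the other WT libraries were at 0 and the fitted value was 8.23, which is no bound. EFNB2 (ENSG00000125266), the transmembrane ligand known from arteries, was counted 42, 45 and 35 times in the KO libraries and 0, 13 and 12 times in the WT libraries. It did not pass, at 1.75 ± 0.75 (SE) on the log2 scale and an adjusted p of 0.164 in edgeR. EFNB2 passed in 2 of 16 alternatives, without WT replicate 1 (1.88, adjusted p 0.0150) and against WT replicate 1 alone (adjusted p 0.00835), where its WT count was 0 and the fitted 8.02 is no bound, both in edgeR. At the pooled KO share WT replicate 1 would hold 7.71 EFNA5 and 6.48 EFNB2 counts, and it held 0 of each.

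The other 5 listed ephrin genes (EFNA1, EFNA3, EFNA4, EFNB1 and EFNB3) had 1 to 9 counts in WT and 0 in KO, and were not tested after the filter. Among them EFNB1 had 0, 5 and 4 counts in WT replicates 1 to 3. The EphB receptors EPHB2, EPHB3 and EPHB4 were listed, of 5 looked for, and none (0) was deep enough to be tested. EPHB3, a receptor of gut epithelium, had 0 counts in each KO library and 0, 11 and 3 in the WT libraries. EPHB4, the venous partner of EFNB2, was at 1, 0 and 0 counts in the KO libraries against 1, 7 and 0 in WT, and EPHB2 had 1 count, in WT replicate 3.

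Genes that carry the Eph signal inside the cell did not move together. Of 44 partners looked for, 42 were listed and 15 tested, and of these 0 rose, 1 fell and 14 did not pass, with 9 positive and 6 negative log2 fold changes in KO and a median of 0.60, against −0.14 over all tested genes. In this fit 3.01% of tested genes were called lower in KO. YES1, a Src-family kinase, fell in KO, at −3.17 ± 0.75 (SE) on the log2 scale and an adjusted p of 0.0408 in edgeR. Its KO libraries held 4, 6 and 3 counts, and its WT libraries 2, 61 and 28. Leaving out KO replicate 1, 2 or 3 ended the YES1 call (adjusted p 0.260, 0.216 and 0.258) as did leaving out WT replicate 2 or 3 (0.0682 and 0.0542), all in edgeR. Without a KO library or WT replicate 2, 0.0897% to 0.48% of all tested genes were called, and 7.09% without WT replicate 3. Against WT replicate 1 alone the log2 fold change of YES1 was −1.40. The YES1 call was also lost in edgeR without a low-count filter (adjusted p 0.241), at a mean of 5 CPM (0.163) and with the KO libraries added into 1 column.

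The partners next by p did not pass. ROCK2, a kinase that acts on actin and myosin, had 20, 25 and 18 counts in the KO libraries against 14, 53 and 71 in the WT libraries (adjusted p 0.0650 in edgeR). RAC1, a GTPase of actin protrusion, had 5, 9 and 5 in KO and 2, 93 and 15 in WT (0.0708), and CFL1, the actin-severing cofilin, had 8, 6 and 11 in KO and 3, 99 and 9 in WT (0.109). In both, most WT counts were in WT replicate 2. FYN, a Src-family kinase bound by EphA receptors, had 52, 42 and 42 in KO and 4, 8 and 8 in WT (0.126). The GTPase CDC42 had 630, 588 and 619 in KO and 64, 130 and 147 in WT (0.176), and its relative RHOA had 437, 384 and 409 in KO and 50, 170 and 46 in WT (0.215), by edgeR in each case. NGEF, which binds EphA receptors in neurons, had 6 counts, all in WT replicate 2.

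**Figure D4:**
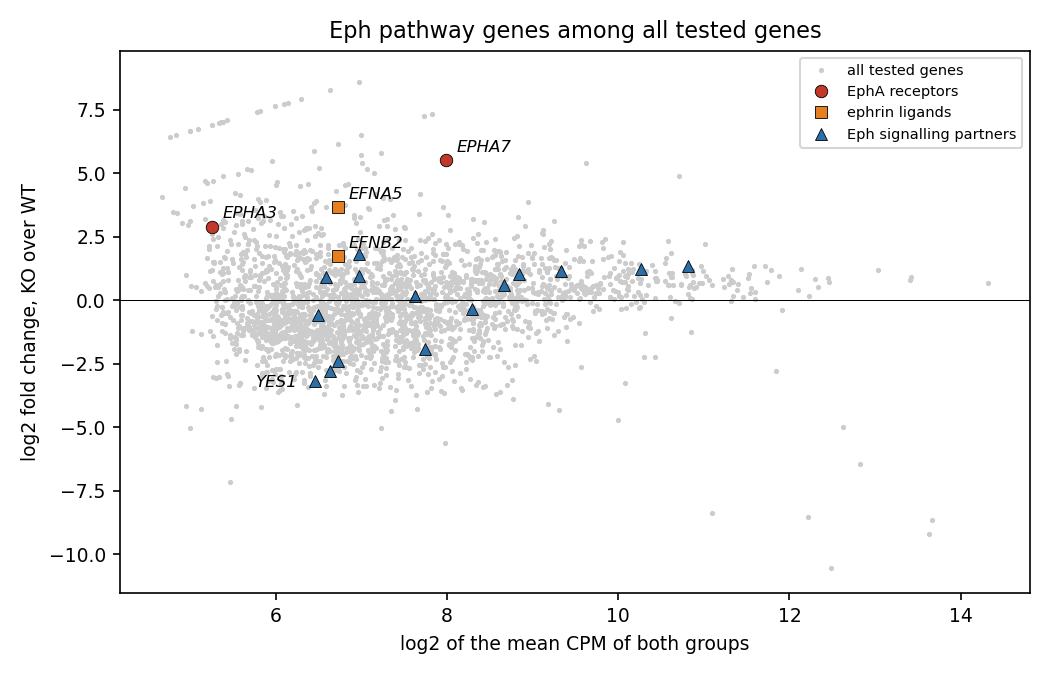
Log2 fold change, KO over WT, against the log2 of the mean CPM of both groups for all 2560 tested genes (grey), with EphA receptors (red circles), ephrins (orange squares) and Eph signalling partners (blue triangles) marked; the receptors, the ephrins and YES1 are named. EPHA7 lies at 5.53 and EPHA3 at 2.90, while the 15 partners lie on both sides of 0.

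Log2 CPM profiles were taken after a small count (2 on average, scaled to library size) was added to each value, which flattens profiles near the floor. The genes most like EPHA7 and EPHA3 over the 6 libraries were taken as the 5 with the smallest root-mean-square difference between these profiles, each centred on its own mean. For EPHA7 these were GRIN1, which encodes the obligate subunit of NMDA receptors (difference 0.38), CPEB1, a regulator of translation (0.43), NEFM, a neurofilament subunit (0.43), FAM155A, an auxiliary subunit of a sodium leak channel (0.47), and DNAJB5, a co-chaperone (0.49). GRIN1 was at 55, 46 and 76 counts in the KO libraries against 1, 0 and 1 in WT, and all 5 had 0 or 1 count in each WT library. For EPHA3 they were PRKAR2B, a regulatory subunit of protein kinase A (0.088), GZF1 (0.30), BCL7C (0.30), PFN2, a profilin that binds actin (0.30), and RFX6, a transcription factor of islet endocrine cells (0.33). PRKAR2B was at 26, 14 and 14 counts in the KO libraries against 0, 2 and 2 in WT, nearly those of EPHA3. PFN2 was at 147, 115 and 126 counts in KO against 2, 35 and 32 in WT. Its log2 fold change was 1.96, against 2.90 for EPHA3, so the flattening bears on the neighbours of EPHA3 as well. EPHA10, EPHA1, EPHA6 and EPHA4 were too low to be tested themselves but were compared with tested genes in the same way. At their counts the added count flattens the profile, so genes with far more counts and smaller differences can come out nearest. Their neighbours are not read as genes of like profile. The nearest to EPHA10 was GATAD2B, a subunit of the NuRD chromatin complex (0.20), with 128, 139 and 137 counts in the KO libraries against 4, 22 and 14 in WT, followed by SRPK2, FXYD5, SCAF8 and RGPD1 (0.21 to 0.24). Among the nearest to EPHA1 were GAPDH, a glycolytic enzyme (0.28), with 28, 26 and 29 counts in the KO libraries against 3, 307 and 24 in WT, and ALDH3A2, AHNAK and PRDX1 (0.30 to 0.32). These 4 genes had their highest counts in WT replicate 2. For EPHA6 it was PRKD3, a protein kinase (0.25), followed by SMCHD1, SMC5, NFIB and PGRMC2 (0.32 to 0.37), all highest in WT replicate 3. For EPHA4 it was TRPS1, a transcription factor (0.15), followed by HIVEP1, PLEC, the partner CFL1 and GNG12 (0.24 to 0.29), all with most WT counts in WT replicate 2. EPHA3 itself was at a difference of 1.36 from EPHA7 and ranked 189 among genes by closeness to it.

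Markers of cell types that islets can hold were read beside these rises. Neuronal and Schwann markers (9 of 14 listed) took 0.173% to 0.214% of counts in KO and 0.0246% to 0.212% in WT, so the groups overlapped. Most of these counts were of SNAP25, a vesicle fusion protein that endocrine cells also express, at 291, 381 and 327 in the KO libraries against 42, 28 and 93 in WT. Of the 3 tested members of this list, SNAP25 and NEFM were higher in every KO library than in every WT library on TMM-scaled sizes. The same held for 22.6% of all tested genes, and 3 genes are too few to speak for the list. NEFM had 51, 47 and 45 counts in KO and 0 in each WT library and rose (adjusted p 0.0237 in edgeR), and SNAP25 did not pass (0.261). MAP2 had 31, 35 and 43 in KO and 14, 49 and 23 in WT, and RBFOX3 was at 0 in KO. β-cell markers (4 of 13 listed) took 0.148% to 0.191% in KO and 0.00582% to 0.0696% in WT, without overlap. Nearly all of these counts were of MAFA and NEUROD1, so the shares speak for these genes and not for the list. NEUROD1 rose (log2 fold change 2.41, adjusted p 0.0450 in edgeR), just under the threshold, and MAFA did not pass (2.61, 0.0990). The calls of NEUROD1 and NEFM were not followed under the other settings. PCSK1 was not tested and had 0 counts in each KO library and 6 in WT replicate 3. Other islet endocrine markers (7 of 12 listed) took 0.0133% to 0.0151% in KO and 0.00238% to 0.0167% in WT, and GCG and SST were not listed under these names. Endothelial markers (8 of 11 listed) took 0.00178% to 0.00266% in KO and 0.00279% to 0.0133% in WT, with CDH5 and TIE1 at 0 in KO. Acinar and ductal markers (6 of 14 listed) took 0.00709% to 0.0111% in KO and 0% to 0.0196% in WT, and immune markers (5 of 10 listed) 0.00177% to 0.00311% in KO and 0% to 0.0236% in WT. The part of these cell types in the EphA and ephrin values was not tested.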

How the data were processed

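Per the labels' protocols, ribosomal RNA was removed from islet RNA (3 KO and 3 WT samples), a directional kit was used, and both fragment ends were read. Per the submitters' processing notes, HISAT2 (2.0.4), cutadapt (1.9.3), edgeR (3.16.5) and HTSeq (0.9.1) were used with mm10, in roles they do not give. The values are whole-number read counts per gene as deposited, not normalized per the file headers. Of 13702 identifiers 0 matched the mouse gene table, although 11747 symbols match a mouse symbol apart from case. The sources used here do not give how reads came to human names. A further 6 per-sample columns were not used.

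The fit across genes used R 4.3.3 and edgeR 4.0.16 (TMM, filterByExpr, quasi-likelihood F test on genotype, two-sided, Benjamini-Hochberg over all tested genes, threshold 0.05), with the standard error taken from the F statistic. The script was tested on simulated data. Alternatives were other scalings and filters, each library left out, WT replicate 1 alone, summed KO columns, a replicate block, DESeq2 1.42.0 and limma-voom (limma 3.58.1). Members, lists and alternatives were chosen with earlier results of these data known. Genes named were all listed EphA, EphB and ephrin genes, called partners and up to 6 others with the smallest p, the 5 nearest profiles (1 gene among them is not reported here), and defining markers; NGEF and ephrins with few counts are given by their counts. A count of 0 allows up to 3 counts. Intervals are at 95% and, like this floor, hold counting error alone.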

Additional observations from a re-analysis of the deposited data

How the results depend on the processing

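EPHA7 and EPHA3 were positive in all 16 alternatives. These reuse the same 6 libraries, in which every KO library was above every WT library for both genes, so the shared sign adds no support. The log2 fold change of EPHA7 was 6.66 with the KO columns summed, where its call was lost, and 4.98 to 6.37 with each library left out. That of EPHA3 was 2.77 with DESeq2 size factors and 3.80 without a low-count filter, both without a call. It was 4.24 with the KO columns summed and 2.69 with the replicate block, again without a call, and 2.85 to 3.53 with each library left out. Against WT replicate 1 alone, where its WT count was 0, EPHA3 had no call and the fitted 6.74 is no bound. The number of changed genes, 206 as reported (129 higher and 77 lower in KO), was 439 without a filter, 385 at a mean of 5 CPM, 766 against WT replicate 1 alone, 137 with the replicate block, 447 with DESeq2, 312 with limma-voom, and 3 to 1527 with each library left out. With the KO columns summed it was 0 in edgeR, with 301 genes at an unadjusted p under 0.05, and no other tool was run on that setting. Of 19 tested Eph family and partner genes, 4 changed as reported (8.05% of all tested genes did). Of these, EPHA7, EPHA3 and EFNA5 entered the test through their KO counts and YES1 through its WT counts. The 4 calls are therefore not evidence about the family. The number was 2 with DESeq2 size factors (8.01%), 2 with the replicate block (5.35%), where YES1 was lost (adjusted p 0.103 in edgeR), and 7 with the DESeq2 test (17.5%). With the KO columns summed 0 of 35 changed (0% of all), and with each library left out 0 to 17 did, the highest being 17 of 22 without WT replicate 1, where 46.6% of all tested genes changed. The difference in EPHA7 share was 12.5 to 45.8 percentage points with each library left out. At a minimum of 50 counts 2 members would be compared. The median log2 fold change of all tested genes was −0.14 as reported, −0.26 with DESeq2 size factors and −0.00081 with library totals. Libraries of the same replicate number did not deviate together (correlation of deviations −0.0022, −0.015 and 0.019 for replicates 1, 2 and 3), so the block pairs by number only; across all KO and WT pairs the values ran from −0.042 to 0.042. The cause of these shifts was not tested. WT replicate 1, with 35906 counts, limits every comparison of members below its floor of 77.2 CPM.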
